A study of Arabidopsis thaliana with 3 samples.

Results

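The genes FHY3 (AT3G22170), FAR1 (AT4G15090) and FRS1 to FRS8 were examined for peaks of the FHY3 protein itself in Arabidopsis inflorescences. A locus was the annotated span of the gene extended by 3 kb on each side, and a peak belonged to it when they overlapped by at least 1 bp. The loci of these 10 genes, of 27444 nuclear protein-coding genes in all, held 2 of the 1477 peaks of replicate 1 and 2 of the 1361 peaks of replicate 2. The rule that defines the members uses gene names and no measured value, although the family was picked with earlier results of these data known.

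FHY3 and FAR1 are transcription factors of far-red light signalling, in which they activate FHY1 and FHL, the genes whose products carry the photoreceptor phytochrome A into the nucleus. They derive from transposases of Mutator-like elements and gave the name to a family of related plant proteins, the FAR1-related sequences (FRS). Roles in flowering time, growth and chloroplast division are known for some FRS genes, and for others little is known.

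The data came from chromatin immunoprecipitation followed by sequencing (ChIP-seq). All 3 samples of the series were inflorescences with flowers up to stage 8 from greenhouse plants in long days (16 h light, 8 h dark), and all carried a 35S:3FLAG-FHY3-3HA transgene in the fhy3-4 mutant. The 35S promoter is a strong viral promoter that is active in most plant tissues, so FHY3 was not under its own promoter. The ChIP group held 2 samples precipitated with an anti-FLAG antibody, which the series design calls biological replicates, and the remaining sample was input DNA, whose values were not used here. No untagged plants and no second condition were analysed here, so each peak is set beside its counterpart in the other replicate and beside all genes. The peak lists hold no reads, so depth is unknown, no value carries a counting error, and a locus without a peak is one where none was listed at this depth. The score is the authors' own value for a peak, of unstated scale, from 23.03 to 3100 in both lists, and it was used to rank and filter peaks within a list and not to compare levels between lists. No source used here names the genome build of the peaks. Wherever a peak is set beside a gene, the positions of the lists were taken to be those of TAIR10.1, and strand was not known.

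FRS3 (AT2G27110) and FRS5 (AT4G38180) were the members with a peak, and both had it in both replicates. The other 8, FHY3 and FAR1 among them, had no peak in either list. Over all protein-coding genes, 7.24% had a peak within 3 kb in replicate 1, 7.6% in replicate 2 and 5.45% in both. Spans of the members ran from 2710 to 4200 bp, longer than the median of 2078 bp over all protein-coding genes. Among the 5935 genes with spans in that range the shares were 7.72%, 7.94% and 5.83%. With 10 members a single gene moves their share by 10 percentage points, and no test was made of the difference.

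The peak of FRS3 lay inside the gene. In replicate 1 it ran from 11578030 to 11578792 on chromosome 2, was 763 bp wide, scored 187 and ranked 233 of 1477 peaks. In replicate 2 it ran from 11577906 to 11578791, was 886 bp wide, scored 309 and ranked 257 of 1361. Both were therefore in the upper part of their list, at the top 15.8% and 18.9%. The peaks ended 1 bp apart and started 124 bp apart, and 99.9% of the replicate 1 peak lay within that of replicate 2. Counted from the end of the gene with the lower coordinate, the peak began at 32.8% of the span in replicate 1 and 29.8% in replicate 2 and ended at 51.2% in both. It touched no other protein-coding gene. A peak overlapped the span in both lists for 1.93% of all protein-coding genes, and a whole peak lay inside it in both lists for 0.74%.

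The genes on either side of FRS3 are SE, which encodes SERRATE, a zinc finger protein of microRNA processing, and TIL2, a gene for a DNA polymerase epsilon subunit. Both were also within 3 kb of the peak, so 3 genes shared it under the same rule. The median number of protein-coding genes within 3 kb of a peak was 1 in replicate 1 and 2 in replicate 2. A further peak lay beyond SE, 7.0 kb from FRS3 in replicate 1 and 7.11 kb in replicate 2. It ran from 11568511 to 11569668 with a score of 158 in replicate 1, and from 11568690 to 11569561 with a score of 169 in replicate 2, over AT2G27090.

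The FRS3 peak was narrow for its score in both lists. Of the 232 other nuclear peaks that scored at least as high in replicate 1, 0.862% were narrower, and of 256 such peaks in replicate 2, 1.56% were. Among all nuclear peaks, whatever their score, 38.8% and 44.3% were narrower. Within 50 ranks of it by score, 3 of 100 peaks were narrower in replicate 1, where the median width was 1090 bp. In replicate 2 it was 5 of 100, with a median of 1170 bp. Width was looked at after the peaks had been seen, and no test was made of it.

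**Figure D1:**
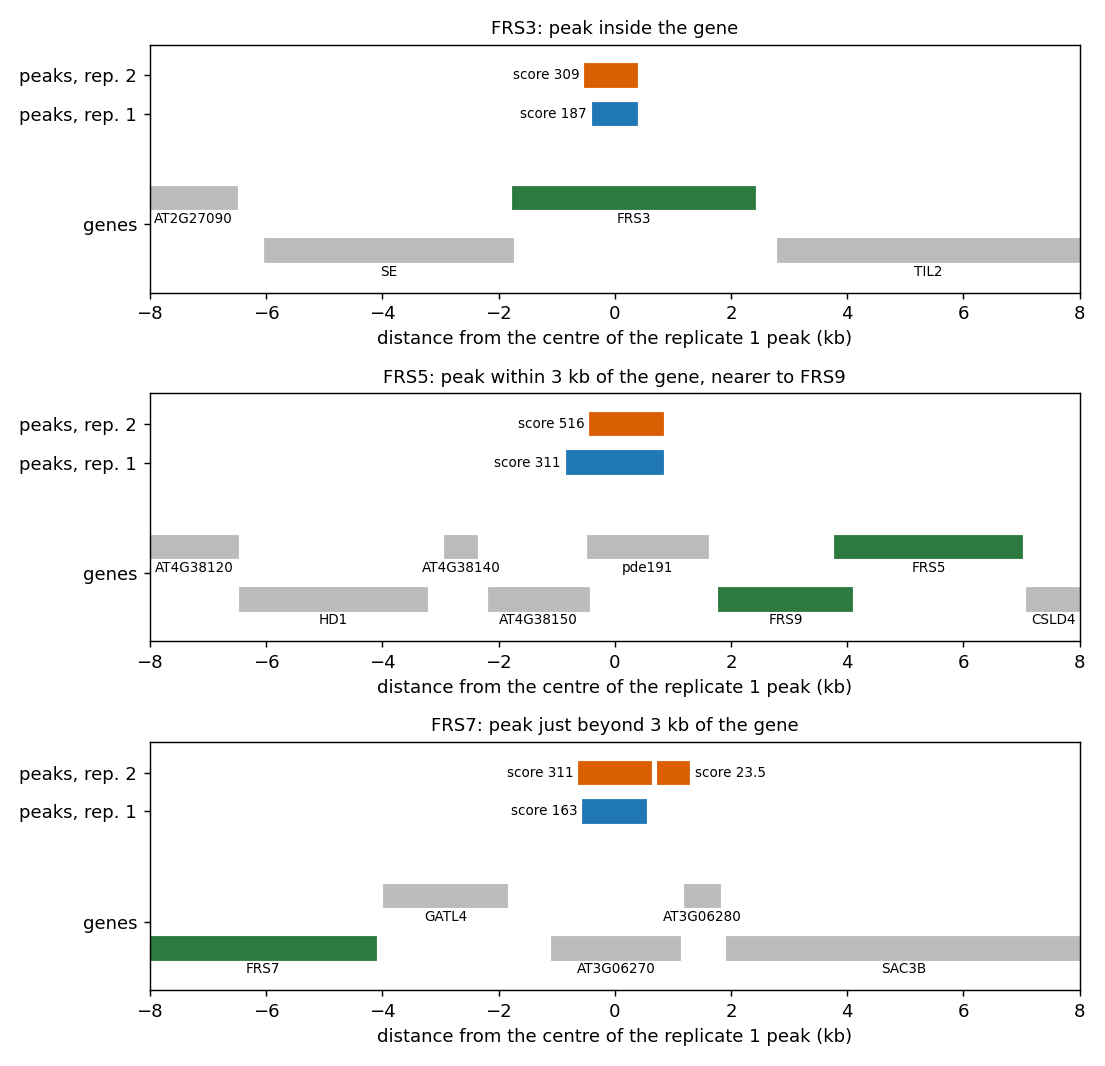
Peaks of replicate 1 (blue) and replicate 2 (orange) and spans of protein-coding genes (family genes in green, others in grey, in 2 rows for legibility) around FRS3, FRS5 and FRS7, against the distance in kb from the centre of the replicate 1 peak. The FRS3 peak lies inside its gene, the FRS5 peak lies over pde191 and is closer to FRS9 than to FRS5, and the FRS7 peak lies beyond GATL4 at 3.57 and 3.5 kb.

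FRS5 met the rule by a small margin, and its peak lay in another gene. In replicate 1 the peak ran from 17901907 to 17903558 on chromosome 4, was 1652 bp wide, scored 311 and ranked 141. In replicate 2 it ran from 17902310 to 17903563, was 1254 bp wide, scored 516 and ranked 158. These ranks are the top 9.55% and 11.6% of the lists, higher than those of the FRS3 peak. The near edge of the peak was 2956 bp from FRS5 in replicate 1 and 2951 bp in replicate 2, just inside the limit of 3000 bp. The midpoint lay in pde191 (AT4G38160), named for a pigment-defective mutant, in both replicates.

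Between that peak and FRS5 lies FRS9 (AT4G38170), a family gene outside the 10 members whose span overlaps that of FRS5. The peak was 974 bp from FRS9 in replicate 1 and 969 bp in replicate 2, so it was closer to FRS9 than to FRS5. It was within 3 kb of 6 protein-coding genes, the highest number found at a peak in either list, which the peak over AT2G32200 near FRS2 also reached. They include HD1 (AT4G38130), a histone deacetylase gene, with AT4G38140 and AT4G38150. The overlap of the replicates was 1249 bp, which is 75.6% of the replicate 1 peak and 99.6% of the replicate 2 peak. The far edges, away from FRS5, differed by 403 bp and the near edges by 5 bp, so in replicate 1 the peak reached into AT4G38150 and in replicate 2 it did not. With a flank of 1000 bp, or with the peak midpoint in place of its edge, FRS5 had no peak and FRS3 was the 1 member left in each list.

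The FRS5 peak was not narrow for its score. In replicate 1, 80.9% of the 141 other nuclear peaks that scored at least as high were narrower, and in replicate 2, 26.1% of 157 were. Among the 100 peaks within 50 ranks, 87 were narrower in replicate 1 and 44 in replicate 2. The width of this peak thus stood in a different place in each list, while the FRS3 peak was near the lower edge in both.

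**Figure D2:**
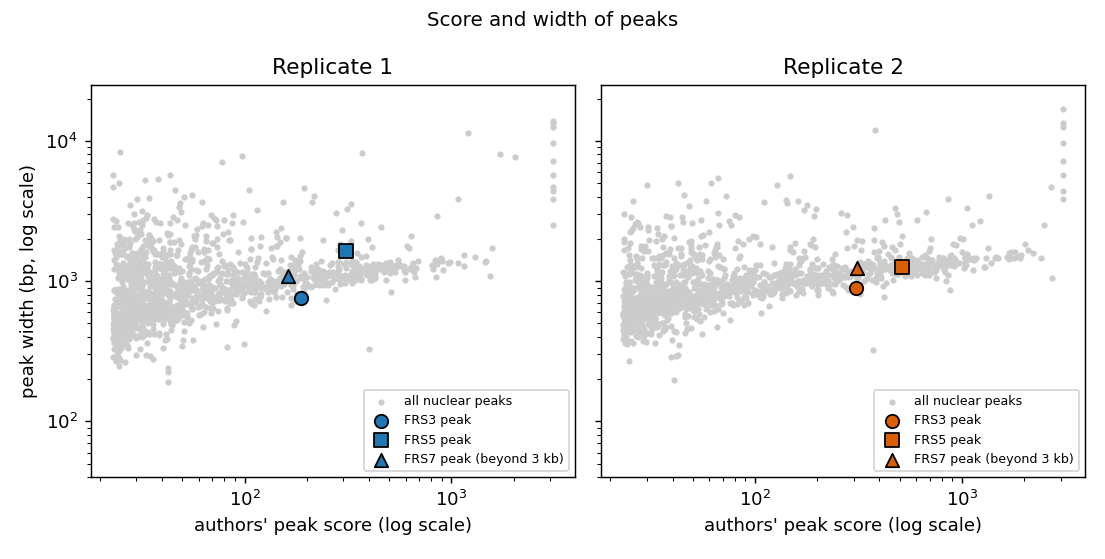
Width in bp against the authors' score, both on log scales, for all nuclear peaks (grey) of replicate 1 (left) and replicate 2 (right), with the peaks of FRS3 (circle), FRS5 (square) and FRS7 (triangle, beyond 3 kb). The FRS3 peak, 763 and 886 bp wide, sits under the band of peaks of like score in both lists.

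FRS7 was the member just outside the limit. FRS7, with FRS12, is known as a repressor of growth-related genes. Its nearest peak ran from 1896400 to 1897478 on chromosome 3 in replicate 1, 3570 bp from the gene, with a score of 163 and rank 261. In replicate 2 it ran from 1896327 to 1897567, at 3497 bp, with a score of 311 and rank 254. These ranks were close to those of the FRS3 peak. The midpoints differed by 8 bp, and the whole replicate 1 peak lay within that of replicate 2. The peak lay over AT3G06270, with GATL4, a galacturonosyltransferase-like gene, between it and FRS7. Replicate 2 listed another peak from 1897684 to 1898215, with a score of 23.5 and rank 1328 of 1361, which had no counterpart in replicate 1. With a flank of 3600 bp, chosen after these values were seen, FRS7 would join FRS3 and FRS5, and the share of all genes with a peak in both lists would be 6.25%.

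FRS1 and FRS2 had weak peaks nearby that did not recur. At FRS1 on chromosome 4, replicate 1 had a peak from 10824435 to 10826202 at 6.01 kb, with a score of 32.4 and rank 991. Replicate 2 had a peak on each side of the gene, from 10827779 to 10828331 at 3.88 kb with a score of 24.3, and from 10840591 to 10841082 at 4.89 kb with a score of 30.8. None of these 3 peaks overlapped one of the other list. At FRS2 on chromosome 2, replicate 1 had a peak from 13687792 to 13688188 at 4.91 kb, inside AT2G32240, with a score of 25.8 and rank 1288. Replicate 2 had none there, and its nearest lay at 16.4 kb, over AT2G32200, where replicate 1 also had one. With a flank of 5000 bp, replicate 1 therefore gained FRS2 and FRS7 and replicate 2 gained FRS1 and FRS7.

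At FRS6, a gene with a role in the timing of flowering, the nearest peak was in both lists, 8.38 kb away in replicate 1 and 8.13 kb in replicate 2, over AT1G52490. It scored 82.4 at rank 449 in replicate 1 and 203 at rank 331 in replicate 2, and 3 protein-coding genes lay between it and FRS6. At FRS4, known also as a chloroplast division gene, replicate 1 had a weak peak at 16.4 kb with a score of 28.7, which overlapped no peak of replicate 2. A high peak at AT1G76400 lay farther on, with 6 genes between, at 25.2 kb in replicate 1 (score 651, rank 41) and 25.1 kb in replicate 2 (score 1447, rank 28).

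FHY3, FAR1 and FRS8 had no peak within 50 kb in either list. The same held for 48.1% of all protein-coding genes in replicate 1 and 45.6% in replicate 2. The nearest peak to FHY3 itself was 53.5 kb away in replicate 1 and 53.2 kb in replicate 2, beside AT3G22275, with scores of 662 and 1098 at ranks 39 and 43. Of all protein-coding genes, 46.1% were farther from a peak in replicate 1 and 43.6% in replicate 2, so FHY3 stood near the middle. The nearest peak to FAR1 was 255.5 kb away in replicate 1 and 255.8 kb in replicate 2, at UMAMIT38. FRS8, which like FRS6 has a role in flowering time, was 310.3 kb from its nearest peak in both, at MYB63. Distances over 200 kb were found for 7.89% of all protein-coding genes in replicate 1 and 7.14% in replicate 2.

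**Figure D3:**
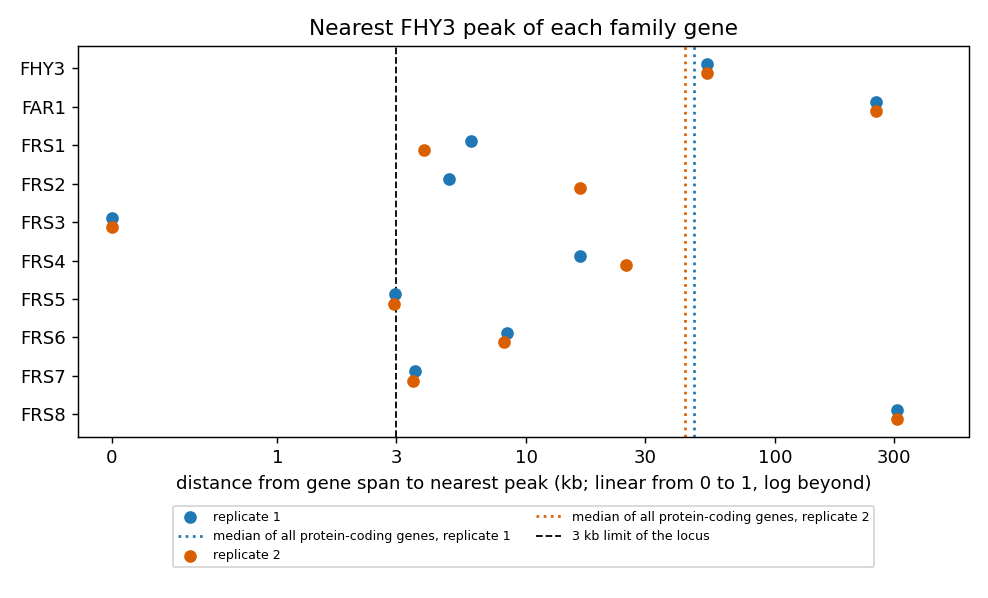
Distance in kb from the span of each family gene to its nearest peak in replicate 1 (blue) and replicate 2 (orange), on an axis that is linear from 0 to 1 kb and logarithmic beyond, with the 3 kb limit dashed and the median of all protein-coding genes dotted. FRS3 is at 0, FRS5 is just left of the limit, and FRS7 is just right of it, while FAR1 and FRS8 lie beyond 200 kb.

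As a group, 7 of the 10 genes were nearer to a peak than the median gene in both lists. By the definition of a median, at most 50% of all genes are nearer than it in a list. The share that met this in both lists at once is therefore no higher than that, and its value was not computed. The median distance of the members was 7.19 kb in replicate 1 and 12.3 kb in replicate 2, against 47.2 kb and 43.5 kb over all protein-coding genes. These medians, and the counts within 10 kb below, include weak peaks that did not recur. In replicate 1 these were at FRS1 (6.01 kb, score 32.4) and FRS2 (4.91 kb, score 25.8), and in replicate 2 at FRS1 (3.88 kb, score 24.3). The values over all genes count weak peaks too. Within 10 kb, a distance chosen after these values were seen, 6 members had a peak in replicate 1 and 5 in replicate 2, against 16.4% and 17.4% of all protein-coding genes. FRS3, FRS5, FRS6, FRS7 and FRS1 had one in both lists, against 13.0% of all genes, but the FRS1 peaks of the lists lay at different places. At the other end, FAR1 and FRS8 were farther from a peak than most genes, with 4.43% and 2.5% of genes farther away in replicate 1. The members therefore did not share 1 distance to FHY3 peaks. They all lay in regions of ordinary gene density, with 0.915 to 1.13 times the median of their chromosome per 500 kb. For 7 of the 10 the nearest peaks of the lists overlapped each other, the exceptions being FRS1, FRS2 and FRS4, and for all protein-coding genes the share was 57.2%. Distances of neighbouring genes are not independent, and no test was made.

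**Figure D4:**
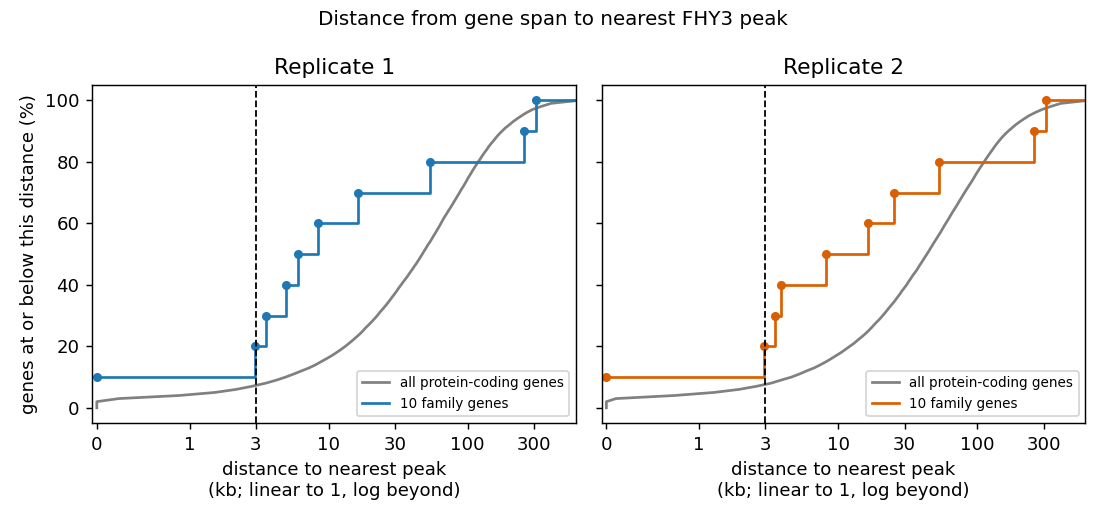
Percent of genes whose nearest peak lies at or below a given distance in kb, for all protein-coding genes (grey) and the 10 family genes (coloured steps) in replicate 1 (left) and replicate 2 (right), on an axis linear to 1 kb and logarithmic beyond. The family genes run above the grey curve at short distances, with medians of 7.19 and 12.3 kb, until the grey curve reaches 80% at 118.9 kb in replicate 1 and 112.0 kb in replicate 2, and below it from there until FRS8.

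The 4 remaining family genes, FRS9 to FRS12, gave 1 with a peak within 3 kb in both lists, FRS9. Their median distance to a peak was 42.2 kb in replicate 1 and 26.3 kb in replicate 2. Over all protein-coding genes it was 47.2 kb and 43.5 kb, and for the 10 members 7.19 kb and 12.3 kb. Over the 14 genes FHY3, FAR1 and FRS1 to FRS12, 3 had a peak in both, but these rest on 2 peak regions, since FRS5 and FRS9 share 1. Genes of far-red light signalling around FHY3, which include its targets FHY1 and FHL, the photoreceptor gene PHYA and the transcription factor gene HY5, had a peak within 3 kb in 0 of 8 cases in either list. The 9 genes of other domesticated transposases, MUG1 to MUG8 and DAYSLEEPER, also had 0. Over all protein-coding genes the share was 7.24% in replicate 1, 7.6% in replicate 2 and 5.45% in both. At any of these shares, lists of 8 and 9 genes would hold less than 1 such gene each, so these counts of 0 do not set them apart.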

How the data were processed

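ChIP-seq peak lists of 2 FHY3 ChIP samples were analysed, grouped by title. The tools named in the submitters' processing notes are CASAVA 1.8, Bowtie2 2.2.3 and MACS 1.4.2. Neither their settings nor the build or the peak caller's control is stated in those notes as used here. Peaks were deposited per sample, with the authors' score for each peak. Starts were converted to count from 1, and peaks were ranked by score within each whole list. Gene spans and names came from a TAIR10.1 table without strand. Of 35 listed genes 31 were matched, by locus or symbol, and the 4 FRF symbols matched none. FAR1 is also the symbol of a fatty acid reductase gene, so it was matched by locus. The rule named all members, list genes with a peak within 3000 bp, and genes at member peaks. Members and lists were chosen with earlier results of these data known. The overlap rule was tested on simulated data. Sequences were not analysed here, so the planned search for binding site words was not run. Python 3.11.15, numpy 2.4.6, pandas 2.3.3 and matplotlib 3.10.9 were used.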

Additional observations from a re-analysis of the deposited data

How the results depend on the processing

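The count of 2 members with a peak, in both lists and in each list, was the same with a score of at least 100 and at or above the median score of a list. For both lists it was also the same with peaks that overlapped between lists, or did so reciprocally by 50%, and with either replicate left out (2 to 2). It was 1 with a flank of 0 or 1000 bp and with peak midpoints, since the FRS5 peak lies near the limit. Flanks of 5000 bp gave 3 in both, 4 in replicate 1 and 4 in replicate 2. Flanks of 3600 and 10000 bp were chosen after the data were seen, and gave 3 and 5 in both, 3 and 6 in replicate 1 and 3 and 5 in replicate 2. The share of all protein-coding genes, given in turn for both lists, replicate 1 and replicate 2, was 1.93%, 2.59% and 2.82% with a flank of 0 bp, 3.18%, 4.22% and 4.49% with 1000 bp, 6.25%, 8.18% and 8.57% with 3600 bp, 7.77%, 10.1% and 10.6% with 5000 bp, and 13.0%, 16.4% and 17.4% with 10000 bp. It was 4.92%, 6.56% and 6.86% with midpoints, 2.96%, 3.05% and 4.17% with a score of at least 100, and 4.12%, 4.58% and 5.22% at or above the median score. For both lists it was 5.33% with overlapping peaks, 5.03% with reciprocal overlap, and 7.24% to 7.6% with a replicate left out. No paired analysis was possible because there is 1 ChIP group only. Depth is unknown, so a locus with no listed peak may still hold binding, and the build and strand limit which gene a peak is set beside.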

Other observations

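FRS12, a further family gene, and PHYA, of far-red light signalling, had no peak within 3 kb in either list. Each had a high-ranked peak a little farther out in both lists, and they are named because of these values. Of the other genes among FRS9 to FRS12 and far-red light signalling, only FRS9 had a peak within 10 kb. Over all protein-coding genes, 16.4% had one within 10 kb in replicate 1 and 17.4% in replicate 2. At FRS12 the nearest peak ran from 6323748 to 6324908 on chromosome 5 in replicate 1, at 5.39 kb, with a score of 377 and rank 104. In replicate 2 it ran from 6323632 to 6325048, at 5.25 kb, with a score of 607 and rank 131, and it lay over AT5G18937 in both. At PHYA, the phytochrome A gene, the nearest peak ran from 3088353 to 3089650 on chromosome 1 in replicate 1, at 5.51 kb, with a score of 564 and rank 52. In replicate 2 it ran from 3088271 to 3089829, at 5.33 kb, with a score of 1057 and rank 46. The gene nearest to its midpoint was AT1G09550 and not PHYA.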
